A study of Mus musculus with 4 samples.

Results

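The comparison set the group 2 thymocytes of Uba3ΔT mice against those of Uba3F/F mice. It used 8875 of the 35275 genes in the deposited table, those with a CPM of 10 or more (CPM is the count scaled to the library total) in either group 2 library. Of the 4 libraries of the series, 2 entered: the group 2 library titled WT, from mice with the floxed Uba3 allele (Uba3F/F), and the group 2 library titled KO, from Uba3ΔT mice, given as Uba3-/- in the genotype field. Both came from untreated C57BL/6 mice of 6 to 8 weeks, whose thymus cells were stained for TCRβ and CD69, sorted as TCRβ-intermediate CD69-high cells, and lysed in Trizol. The other pair, group 3, was sorted as TCRβ-high CD69-high and is set beside group 2 where it helps. What drives the deletion and how many mice went into a library are not given in the sources used here. The cell type field puts both WT libraries in group 2 and both KO libraries in group 3, against the titles and the series design; the titles were followed.

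Uba3 is the catalytic subunit gene of the E1 enzyme for NEDD8, a small relative of ubiquitin. NEDD8 joined to a cullin switches on the cullin-RING ubiquitin ligases, which mark many short-lived regulators for the proteasome, among them the oxidative stress factor NRF2, inhibitors of the cell cycle and inhibitors of NF-kB. In the thymus, double-positive cells whose T cell receptor engages self-peptide and MHC raise CD69 and TCRβ and end recombination of the receptor genes. TCRβ-intermediate CD69-high cells are at an early stage of that response, before TCRβ reaches its mature level.

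The 2 libraries held 10299863 counts (WT) and 8964120 counts (labelled KO). All 12 T cell markers examined were present in both. Cd69, one of the sort markers, had 6718 counts in the WT library and 5475 in the library labelled KO, giving a ratio of 0.969 after scaling (95% interval 0.935 to 1.0). Cd4 and Cd8a, the coreceptor genes, had log2 ratios of -0.19 and -0.09. Rag1, a recombinase gene of the earlier double-positive stage, was higher in group 2 than in group 3 in both genotypes, at 3377 against 2073 counts and 2006 against 1454. The ratios used below are of counts scaled by TMM factors, library labelled KO over WT. Their intervals are exact binomial ones for counting error only, since each side had 1 library, and no difference has a replicate check. Counts quoted for group 3 are unscaled, from libraries of 8043077 counts (WT) and 9689339 counts (labelled KO).

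Counts of the targeted gene were not lower in the library labelled KO. Uba3 had 453 counts in the WT library and 647 in the library labelled KO, giving a ratio of 1.70 (1.5 to 1.92), and in group 3 it had 356 and 856 counts. Counts over the whole gene check nothing about deleted exons, and the libraries are therefore called by their labels throughout. Of the 14 neddylation genes at 10 CPM, Uba3 among them, none passed 2-fold, where 2.93% of all features did in either direction. Dcun1d4, which helps to join NEDD8 to cullins, had 112 and 55 counts (0.584, 0.415 to 0.813), past 1.5-fold lower, and 45 and 82 in group 3. NEDD8 itself (Nedd8) had 1492 and 1197 counts, a log2 ratio of -0.07. Among 18 genes for cullins, their exchange factor and the COP9 signalosome, which removes NEDD8, the median log2 ratio was -0.06. Of these, Cul7 alone passed 2-fold, with 73 and 128 counts. Lists of this length would hold few such genes at the share of all features. Cul7 reached 10 CPM in the library labelled KO only, had 129 and 111 counts in group 3, and was at a log2 ratio of 0.88 after an adjustment for GC content described below.

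Over all features, 160 genes (1.80%) were higher in the library labelled KO, by 2-fold or more with an interval excluding 1, and 100 (1.13%) were lower, 260 (2.93%) in all. At 1.5-fold the counts were 546 higher (6.15%) and 572 lower (6.45%). The median log2 ratio of all features was -0.03, and their 5th and 95th percentiles were -0.64 and 0.65. Of the 160 higher genes, 84 reached 10 CPM in the library labelled KO only, and 60 of the 100 lower genes did so in the WT library only. Such genes entered the comparison through the library in which they were high. Among the 8279 features that reached 10 CPM in both libraries, 76 were higher and 40 lower. Just inside the threshold stood Scrn3, Mrps18b and Miga2, with 103 counts each in the WT library, and just outside it Camk1g, Dnase1l1 and Pop1, with 89 counts each (9.93 CPM) in the library labelled KO.

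**Figure D1:**
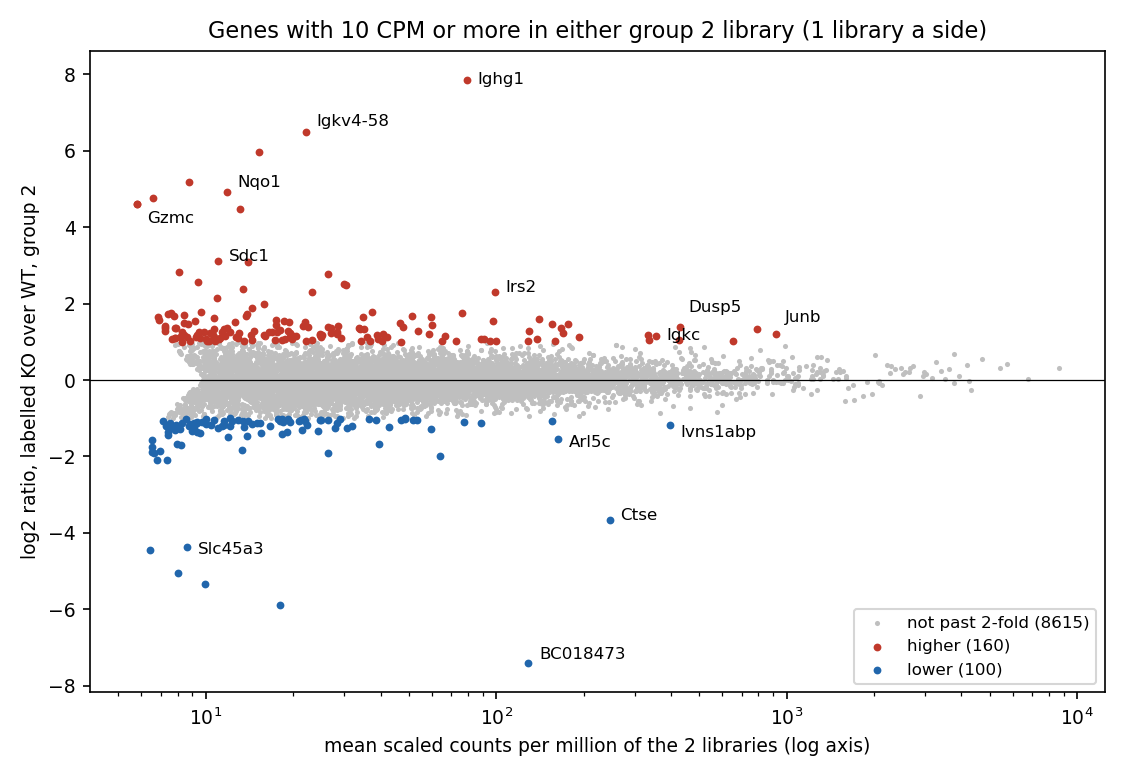
Log2 ratio of scaled CPM (library labelled KO over WT, group 2, with 0.5 CPM added to each) against the mean scaled CPM of both libraries on a log axis; each point is 1 of 8875 genes, red where higher and blue where lower by 2-fold. Most genes lie close to 0, Ighg1 stands highest and BC018473 lowest.

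The highest log2 ratio outside the immunoglobulin genes (4.93) was that of Nqo1, which encodes a quinone reductase and is a textbook target of NRF2. Nqo1 (chr8:107388225-107403206) had 3 counts in the WT library and 207 in the library labelled KO, or 0.286 and 23.4 scaled CPM, a ratio of 82.0 (27.7 to 401). Gzmc, a granzyme of cytotoxic cells, was at 0 counts in the WT library and 102 in the library labelled KO. Against the 3 counts that a count of 0 allows, Gzmc was at least 40.4-fold higher, and the lower limit of its interval was 32.3. In group 3, Nqo1 had 5 and 234 counts and Gzmc 7 and 58, so both genes were near their floor in each WT library and well above it in each library labelled KO.

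Several genes for surface and secreted proteins stood 4-fold or more higher. Sdc1, a heparan sulfate proteoglycan known best from plasma cells, had 20 and 178 counts (ratio 10.6, 6.65 to 17.7). Mpp4, a membrane scaffold gene, had 27 and 224 counts (9.86, 6.60 to 15.3). Pcsk1, a prohormone convertase, had 17 and 129 counts, Ramp3, a partner of the calcitonin family receptors, 93 and 457, and Plaur, the urokinase receptor, 64 and 227. In group 3 the same genes had 20 and 132 (Sdc1), 3 and 51 (Mpp4), 17 and 123 (Pcsk1), 51 and 320 (Ramp3) and 85 and 369 (Plaur) counts, higher in the library labelled KO each time. Serpine2, a serpin that inhibits serine proteases, had 25 and 145 counts in group 2 and 65 and 71 in group 3 (ratio there 0.935). Ctsh, a cysteine cathepsin, had 39 and 160 counts in group 2 and 45 and 77 in group 3.

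Genes that act in signalling and transcription were also among the highest. Irs2, an adaptor of the insulin and IL-4 receptors, had 349 counts in the WT library and 1458 in the library labelled KO, giving a ratio of 4.97 (4.42 to 5.6). Foxb1, a forkhead factor gene, had 42 and 202 counts (5.72, 4.08 to 8.18). Klf11 and Klf9, of the Krüppel-like factors, had 122 and 280 and 44 and 101 counts. The other 6 members of that list at 10 CPM did not pass 2-fold, and 1.80% of all features were 2-fold higher. Klf9 reached 10 CPM in the library labelled KO only. At high levels, Tubb2a (a β-tubulin), Cnn2 (a calponin), Snx18 (a sorting nexin) and Vps37b (a subunit of the ESCRT-I sorting complex) had ratios of 2.28, 2.03, 2.34 and 2.56. Cnn2 had 4541 and 7756 counts, which leaves an interval of 1.96 to 2.11 for counting error alone. Its 2-fold call ended after the GC adjustment given below (log2 ratio 0.93) and when counts were scaled by library totals.

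The gene with the largest loss was BC018473, annotated as an antisense transcript on chromosome 11 (chr11:116752167-116759373). BC018473 had 2702 counts in the WT library and 9 in the library labelled KO, giving a ratio of 0.00396 (0.00181 to 0.00753). In group 3 it had 1918 and 10 counts, and both libraries labelled KO thus held under 1% of the WT count. Gm8822, a processed pseudogene on chromosome X that was picked after its values were seen, had 376 counts and 1 count in group 2 and 258 and 5 in group 3. Counts of a pseudogene and of an antisense gene depend on how shared reads were assigned.

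Ctse and Slc45a3 were the most reduced protein-coding genes. Ctse (chr1:131638306-131675505), an aspartic endopeptidase of endosomes, had 4801 counts in the WT library and 313 in the library labelled KO, giving a ratio of 0.0775 (0.0689 to 0.0869). Slc45a3 (chr1:131962967-131982969), a sugar transporter gene that lies within 1 Mb of Ctse, had 178 and 3 counts (0.0200, 0.00409 to 0.0595). In group 3, Ctse had 3625 and 498 counts and Slc45a3 129 and 8. Hoxa7, a homeobox gene, had 128 and 22 counts in group 2 and 144 and 5 in group 3. Arl5c, a small GTPase gene, had 2558 and 739 counts (0.343, 0.316 to 0.373) and Ptprv, a receptor-type phosphatase gene, 118 and 24. In group 3, Arl5c had 2117 and 513 counts and Ptprv 81 and 16. Each of these 5 genes was lower in both libraries labelled KO.

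Other lower genes did not show the same in group 3. Dynlt1b, a dynein light chain gene with near-identical copies that may share its reads, had 1080 and 227 counts in group 2 (0.25, 0.216 to 0.289) and 622 and 587 in group 3. Aldh3b1, an aldehyde dehydrogenase gene, had 119 and 20 counts and, in group 3, 58 and 69. Cd200, an immunoglobulin-family ligand that restrains myeloid cells, had 283 and 86 counts (0.361, 0.280 to 0.461) and, in group 3, 207 and 229 (0.947). Whether the ratio differs between the sorted groups was not tested: 4 libraries in 4 groups leave no residual.

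Interferon-stimulated genes were higher as a group. Of 51 listed, 44 reached 10 CPM; their median log2 ratio was 0.59 against -0.03 for all features, 41 lay above 0 (46.6% of all features did), 11 were past 2-fold and 22 past 1.5-fold, against 1.80% and 6.15% of all features, and none was lower at either fold. Of the 44, 39 had 10 CPM in both libraries, as did 7 of the 11. Oas1a, a sensor of double-stranded RNA, had 90 counts in the WT library and 454 in the library labelled KO, or 8.57 and 51.4 scaled CPM, a ratio of 6.00 (4.77 to 7.61). Usp18, a protease that removes ISG15 from proteins, had 362 and 1041 counts (3.42, 3.03 to 3.86), and Rtp4, a chaperone of receptor transport, 524 and 1287 (2.92, 2.64 to 3.24). The transcription factor genes Irf7 and Irf9 stood at ratios of 2.10 and 2.04. The antiviral genes Rsad2, Ifih1, Isg20, Oas3 and Isg15 had log2 ratios of 1.57, 1.54, 1.38, 1.29 and 1.13. In group 3 the median of the list was 0.47, and 4 of its genes were past 2-fold higher, against 1.03% of all features there.

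Interferon acts through a response element, searched for here as GAAA followed, after any 2 bases, by a further GAAA, on both strands of RefSeq promoter windows, 250 bases before to 50 after each start. The motif occurred in 43.9% of the 41 windows of listed interferon genes that reached 10 CPM, against 3.44% of 32849 windows in all and 3.30% of those of all features, and in 12.9% of the 132 windows of the genes 2-fold higher. Those 132 include the windows of the listed interferon genes past 2-fold, which held it in 5 of 11 (45.5%), a share like that of the whole list. The stretches below, from RefSeq on GRCm38.p6 (mm10), show the element upstream of 4 of the higher genes, read 5′ to 3′ on the gene's strand with every match in capitals. They lie on the minus strand at chr5:120907526-120907585 (Oas1a), chr4:156200835-156200936 (Isg15), chr12:26456523-26456612 (Rsad2) and chr5:120777685-120777774 (Oas3). The 2 matches of Oas1a overlap, as do the 3 of Isg15, and that of Rsad2 is on the opposite strand.
Oas1a: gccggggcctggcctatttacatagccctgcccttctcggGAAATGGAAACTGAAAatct
Isg15: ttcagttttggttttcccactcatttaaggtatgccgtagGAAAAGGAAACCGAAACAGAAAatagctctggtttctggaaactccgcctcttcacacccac
Rsad2: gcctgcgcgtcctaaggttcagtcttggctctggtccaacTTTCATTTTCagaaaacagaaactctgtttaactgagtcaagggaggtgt
Oas3: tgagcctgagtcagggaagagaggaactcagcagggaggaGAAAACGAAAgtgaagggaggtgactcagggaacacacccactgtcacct
A match describes the letters in the window and says nothing of binding.

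**Figure D2:**
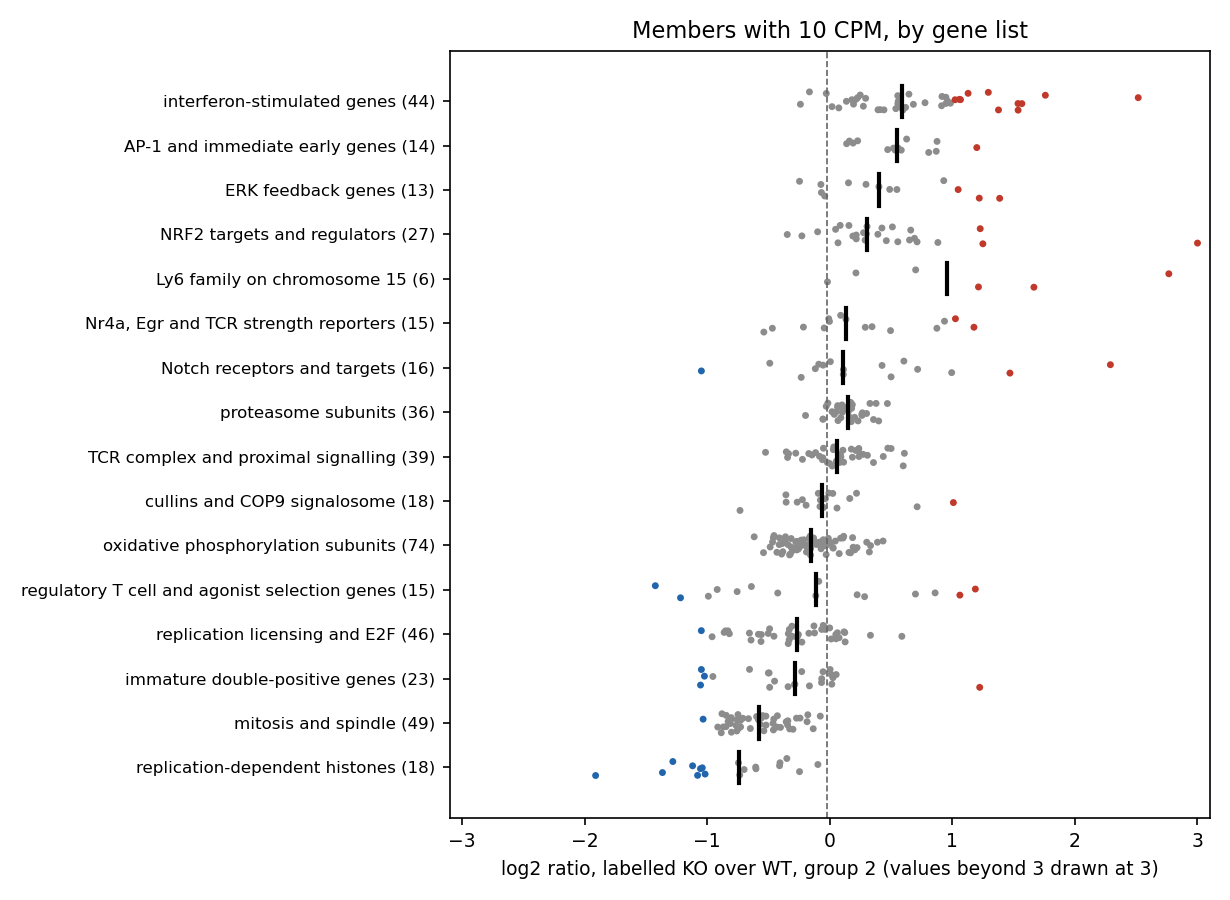
Log2 ratio (library labelled KO over WT, group 2) of each member with 10 CPM in 16 gene lists, with the number of members in brackets; red and blue points passed 2-fold, the short black line is the list's median and the dashed line the median of all features. The interferon list has its median at 0.59 and the histone list at -0.74.

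MHC class I genes, which interferon also regulates, differed less. Of 19 at 10 CPM the median log2 ratio was 0.23. The one past 2-fold higher, against 1.80% of all features, was H2-Q7, with 890 and 1520 counts. H2-Q7 is a nonclassical class I gene with close relatives that may share its reads. Its call ended after the GC adjustment given below. H2-D1 had 10611 and 13484 counts (1.51, 1.47 to 1.55) and H2-K1 had 5865 and 5779 (1.17, 1.13 to 1.22). The Ly6 genes of chromosome 15 encode small surface proteins, several of them inducible by interferon. Ly6c1 had 67 and 409 counts (7.26, 5.59 to 9.54), Ly6a (Sca-1) 255 and 690 (3.22, 2.78 to 3.73) and Ly6c2 177 and 351 (2.36, 1.96 to 2.84). Ly6d and Ly6e, at far higher counts, had log2 ratios of -0.02 and 0.21. Ly6c1 and Ly6c2 are closely alike in sequence, and the split of reads between them is uncertain.

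Targets of NRF2, a factor held low by the cullin 3 adaptor KEAP1, made up a list of 37, of which 27 reached 10 CPM. Their median log2 ratio was 0.30; 24 lay above 0, 3 were past 2-fold higher (Nqo1, Mafg and Gsta4) and 8 past 1.5-fold, with none lower, against 1.80% and 6.15% of all features. Of the 27, 25 had 10 CPM in both libraries, and of the 3 past 2-fold Mafg alone did. Mafg, a small MAF partner of NRF2, had 107 counts in the WT library and 220 in the library labelled KO (2.44, 1.93 to 3.11). Enzymes of the thioredoxin and glutathione systems followed at lower ratios: Txnrd1 with 1042 and 1619 counts (1.85), Gsr with 950 and 1312 (1.64), Gclm with 320 and 428 (1.59) and Gclc with 572 and 709 (1.47). The ferritin genes Ftl1 and Fth1, among the most counted of the list, had 30309 and 41170 counts (1.61) and 16491 and 21780 (1.57). Nfe2l2, which encodes NRF2, had a ratio of 1.38 and Keap1 of 1.21. The same list had a median of 0.40 in group 3.

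The antioxidant response element, through which NRF2 acts, was searched for as TGACNNNGC on both strands. It was present in 28.6% of the 28 promoter windows of NRF2-list genes in 12.4% of all windows and in 14.6% of the windows of all features. Among the genes 2-fold higher the share was 13.6%. Those genes 1.5-fold higher with a match upstream of the start were Mafg (chr11:120633721-120633797, minus strand), Txnrd1 (chr10:82859074-82859162, plus strand) and Gclm (chr3:122245383-122245471, plus strand), printed from RefSeq on GRCm38.p6 with the match, which is on the opposite strand in all 3, in capitals.
Mafg: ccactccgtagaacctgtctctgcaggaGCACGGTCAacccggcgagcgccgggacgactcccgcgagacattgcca
Txnrd1: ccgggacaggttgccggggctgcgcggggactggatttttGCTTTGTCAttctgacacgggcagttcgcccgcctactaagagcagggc
Gclm: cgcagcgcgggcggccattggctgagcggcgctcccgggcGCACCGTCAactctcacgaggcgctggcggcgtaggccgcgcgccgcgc

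Some of the genes induced soon after stimulation of the T cell receptor were higher. The 14 genes of the AP-1 and immediate early list had a median log2 ratio of 0.55 and all lay above 0; 1 passed 2-fold and 5 passed 1.5-fold, against 1.80% and 6.15% of all features. The one past 2-fold, Junb, an AP-1 subunit, had 5865 counts in the WT library and 11335 in the library labelled KO, or 559 and 1284 scaled CPM (ratio 2.30, 2.23 to 2.37), and its call ended after the GC adjustment given below. Ier2 had 3053 and 4714 counts (1.84), Jun 2016 and 3100 (1.83) and Fos 4981 and 6473 (1.54). Of the 13 feedback genes of the ERK pathway at 10 CPM, 9 lay above 0 and 4 below. At 2-fold 3 were higher, against 1.80% of all features. The 3 were the dual-specificity phosphatases Dusp5 with 2490 and 5481 counts (2.62, 2.50 to 2.75), Dusp4 with 168 and 335 (2.37) and Dusp10 with 2908 and 5060 (2.07). Dusp2 had a ratio of 0.972, Dusp1 of 1.40 and Dusp6 of 1.46.

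Reporters of receptor signal strength were mixed. Nr4a1, an orphan nuclear receptor gene induced by the receptor, had 3842 and 5926 counts (1.83, 1.76 to 1.91). Nfil3 and Tox2, of transcription factors, passed 2-fold with 157 and 304 and with 252 and 436 counts. The call of Tox2 ended after the GC adjustment given below. Egr2, Nr4a3, Tox and Cd5 had log2 ratios of 0.29, 0.13, 0.09 and 0.00, and Itm2a, a membrane protein gene raised during positive selection, was at -0.54. The receptor complex and its proximal signalling genes had a median of 0.06 over 39 genes. None of the 39 passed 2-fold, where 2.93% of all features did in either direction. Lat, the membrane adaptor, had 10964 and 13975 counts (1.52, 1.48 to 1.55).

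Among Notch genes, Dtx1, a target and regulator of Notch, had 79 counts in the WT library and 342 in the library labelled KO (5.15, 4.02 to 6.66). Hey1, a target repressor, had 46 and 115 (2.97, 2.09 to 4.28). Dtx1 and Hey1 reached 10 CPM in the library labelled KO only. Notch1 itself had 350 and 450, with a ratio of 1.53, and Hes1 one of 1.68. Ptcra, the pre-TCR α chain gene and a Notch target of the earlier stage, was lower, at 755 and 305 counts (0.480, 0.419 to 0.549). In group 3, Dtx1 had 111 and 483 counts, Notch1 365 and 290 and Ptcra 570 and 249. The list of 16 had a group 2 median of 0.11, with 10 members above 0 and 6 below. At 2-fold 2 were higher and 1 lower, against 1.80% and 1.13% of all features.

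Genes of cell division were lower together. All 49 mitosis and spindle genes at 10 CPM had log2 ratios below 0, from -1.03 to -0.08, with a median of -0.58. At 2-fold only Ttk, the spindle checkpoint kinase, was lower, with 351 and 142 counts (0.481, 0.393 to 0.586), against 1.13% of all features, and at 1.5-fold 23 of 49 were lower and none higher, against 6.45% and 6.15% of all features. After the GC adjustment none was past 2-fold, Ttk being at -0.88, and 16 were past 1.5-fold lower. Kif11, the spindle motor, had 1892 and 911 counts (0.572, 0.528 to 0.620), Cenpf, a kinetochore gene, 1529 and 702 (0.546) and Hmmr, a spindle-associated gene, 1082 and 481 (0.529). In group 3 the median of the list was -0.56, with all 49 genes again below 0. In sorted bulk cells, fewer dividing cells and less of these transcripts per dividing cell cannot be told apart.

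Many mitotic promoters carry the cell cycle homology region, searched for as TTTGAA on both strands. It was found in 81.8% of the 44 windows of listed mitosis genes, in 17.9% of all windows and in 12.2% of the windows of all features. Among the genes 2-fold lower, of which 1 is on that list, the share was 17.9%. Stretches upstream of 3 genes among the lowest of the list are shown from RefSeq on GRCm38.p6 with the match in capitals: Ncapg (condensin, chr5:45669855-45669924), Prc1 (midzone, chr7:80294406-80294475) and Kif11 (chr19:37376323-37376381, match on the opposite strand), each on the plus strand.
Ncapg: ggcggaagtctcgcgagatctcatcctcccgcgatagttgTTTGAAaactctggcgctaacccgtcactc
Prc1: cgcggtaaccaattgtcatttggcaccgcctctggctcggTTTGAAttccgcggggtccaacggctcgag
Kif11: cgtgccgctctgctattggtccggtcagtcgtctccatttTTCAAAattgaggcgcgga
Ncapg had 864 and 393 counts (0.541, 0.479 to 0.610) and Prc1 1343 and 634 (0.561, 0.510 to 0.617).

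Replication-dependent histone genes had the lowest median of the lists, at -0.74 over the 18 that reached 10 CPM of 50 listed. All 18 lay below 0, 8 passed 2-fold and 13 passed 1.5-fold, against 1.13% and 6.45% of all features. Of the 18, 13 had 10 CPM in both libraries, as did 6 of the 8. The others entered through the WT library, where they were high, so the filter itself fixed their sign. Hist1h2bg had 439 counts in the WT library and 95 in the library labelled KO (0.257, 0.204 to 0.322). The linker histone gene Hist1h1e had 2220 and 882 (0.472, 0.436 to 0.511) and Hist1h2ae 1274 and 491 (0.458, 0.412 to 0.509). In group 3 these 3 genes had 225 and 118, 956 and 775, and 372 and 535 counts, and the list's median was -0.52. Histone genes are near-identical copies in a cluster on chromosome 13, and their transcripts mostly lack a poly(A) tail; how RNA was selected for these libraries is not given in the sources used here. Genes of replication licensing and the E2F factors had a median of -0.27 over 46, with 1 past 2-fold (Ccne2, cyclin E2, 303 and 121 counts) and 8 past 1.5-fold lower. The call of Ccne2 ended after the GC adjustment given below. Rrm2, the ribonucleotide reductase subunit made in S phase, had 4954 and 2291 counts (0.55, 0.523 to 0.578). In the other direction, Cdt1, a licensing factor that a cullin ligase removes as protein, had 483 and 613 counts (1.51, 1.34 to 1.70).

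Of the inhibitors of the cell cycle, Cdkn1a (p21) had 51 and 96 counts (2.24, 1.58 to 3.21) and, in group 3, 64 and 74 (0.990). It reached 10 CPM in the library labelled KO only, and its 2-fold call ended with a pseudocount of 2 CPM. Cdkn1b (p27), better counted, had 1231 and 1417 (1.37, 1.27 to 1.48). Myc was lower at 1071 and 650 counts (0.722, 0.654 to 0.796). Of 22 p53 target genes, Bbc3 (PUMA, a BH3-only killer protein) and Cdkn1a passed 2-fold higher, against 1.80% of all features. At 1.5-fold, 7 were higher and 1 lower, against 6.15% and 6.45% of all features. After the GC adjustment 4 were higher and 1 lower at 1.5-fold. Bbc3 had 275 and 512 counts (2.21, 1.91 to 2.57) and, in group 3, 374 and 593. Its log2 ratio fell to 0.83 after the GC adjustment. The list's median was 0.04. Bcl2l11 (BIM), the BH3-only gene of negative selection, had 2437 and 2736 counts (1.33, 1.26 to 1.41) and Bcl2 1960 and 1559 (0.946, 0.884 to 1.01).

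Genes of the immature double-positive stage were lower in part. The 23 listed genes had a median of -0.28, with 3 lower and 1 higher at 2-fold, against 1.13% and 1.80% of all features. Rag1 and Rag2, the recombinase, had 3377 and 2006 counts (0.706, 0.668 to 0.747) and 1803 and 781 (0.515, 0.473 to 0.560). Slc6a19, an amino acid transporter gene, and Adgrg1, an adhesion receptor gene, passed 2-fold, with 734 and 295 and with 515 and 211 counts, as did Ptcra. Elovl6, a fatty acid elongase gene, was higher, with 80 and 163, and reached 10 CPM in the library labelled KO only. The median of the same list was -0.37 in group 3. Ccr7, the receptor that guides selected cells to the medulla, had 2052 counts in the WT library and 1412 in the library labelled KO (0.818, 0.764 to 0.876), while in group 3 it had 4830 and 5703.

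Genes of agonist selection and regulatory T cells went both ways. Nrp1 (neuropilin 1) had 629 counts in the WT library and 225 in the library labelled KO (0.425, 0.364 to 0.496), and Ikzf2 (Helios) 3205 and 1595 (0.592, 0.557 to 0.628). The TNF receptor genes Tnfrsf4 (OX40) and Tnfrsf9 (4-1BB) were lower too, with 317 and 132 (0.495) and 614 and 330 (0.639). In contrast Tnfrsf1b (TNFR2) had 265 and 470 (2.11), Capg, an actin-capping gene, 246 and 477 (2.31) and Izumo1r (folate receptor 4) 545 and 747 (1.63). In group 3, Nrp1, Ikzf2, Tnfrsf4 and Tnfrsf9 had log2 ratios of -1.37, -0.76, -1.23 and -0.79. Itgae, the αE integrin of CD8 cells (CD103), had 119 and 38 counts, and Ccr8, a chemokine receptor of selected CD4 thymocytes, 282 and 108 (0.455, 0.361 to 0.570). Tnfsf11 (RANKL), a ligand that thymocytes present to the medullary epithelium, had 102 and 212 counts (2.47, 1.94 to 3.16) and, in group 3, 236 and 721.

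Genes of several housekeeping systems stayed close to the median of all features. None of the 36 proteasome subunits passed 1.5-fold, where 6.15% of all features were higher and 6.45% lower. The subunits had a median of 0.15, and 31 lay above 0 (46.6% of all features did). In group 3, 18 of them lay above 0 and 18 below. Of 74 oxidative phosphorylation subunits, 55 lay below 0, with a median of -0.15. Atp5e, a small ATP synthase subunit, was the one past 1.5-fold lower, against 6.45% of all features, with 546 and 298 counts. In group 3 that list had a median of 0.34, with 17 past 1.5-fold higher, where 5.24% of all features were; the difference between the sorted groups was not tested. Glycolysis, heat shock and ribosome biogenesis genes had medians of 0.04, -0.05 and 0.00.

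Immunoglobulin genes held the highest log2 ratio of the comparison, 7.85 for Ighg1. Ighg1 (chr12:113325240-113330523), the constant region of IgG1, had 2 counts in the WT library and 1400 in the library labelled KO, giving a ratio of 832 (230 to 6879), and 1 and 2 counts in group 3. Other constant regions were present on both sides: Igkc with 2304 and 4328 counts (2.23, 2.12 to 2.35), Ighg2c with 620 and 881, Igha with 570 and 741, and Ighm with 10996 and 9059. Ighg2b was lower, with 655 and 348 (0.632, 0.553 to 0.720), and Ighe went from 62 counts to 0. Igha was past 2-fold lower in group 3, with 869 and 372 counts (0.367, 0.324 to 0.414). Igkc had 504 and 595 counts in group 3, and the 4 Ighg genes together 29 and 46 there, against 1283 and 2634 in group 2. Both group 2 libraries therefore held more IgG transcripts than either group 3 library.

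Most of the leading variable segments differed between the libraries; those named here were chosen after their values were seen. In the library labelled KO, Igkv4-58 with 390 counts, Igkv3-4 with 269 and Igkv6-23 with 226 made up 25.8%, 17.8% and 15% of 1511 Igkv counts, and in the WT library they had 0, 0 and 7. There, Igkv6-15 with 254, Igkv6-20 with 208 and Igkv16-104 with 168 made up 28.7%, 23.5% and 19.0% of 884, and in the library labelled KO they had 217, 0 and 0. Igkv6-15 was thus at a like level in both, with a ratio of 1.02 (0.843 to 1.22). The exact 95% interval of the share of Igkv4-58 was 23.6% to 28.1%. The leading heavy chain segments were Ighv7-1 (155 counts, 0 in WT) and Ighv9-3 (116, 0 in WT) in the library labelled KO, and Ighv1-81 (87, 0 in the library labelled KO) and Ighv1-26 (68 and 1) in the WT library. V segments resemble each other, and reads may have been assigned among close relatives.

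**Figure D3:**
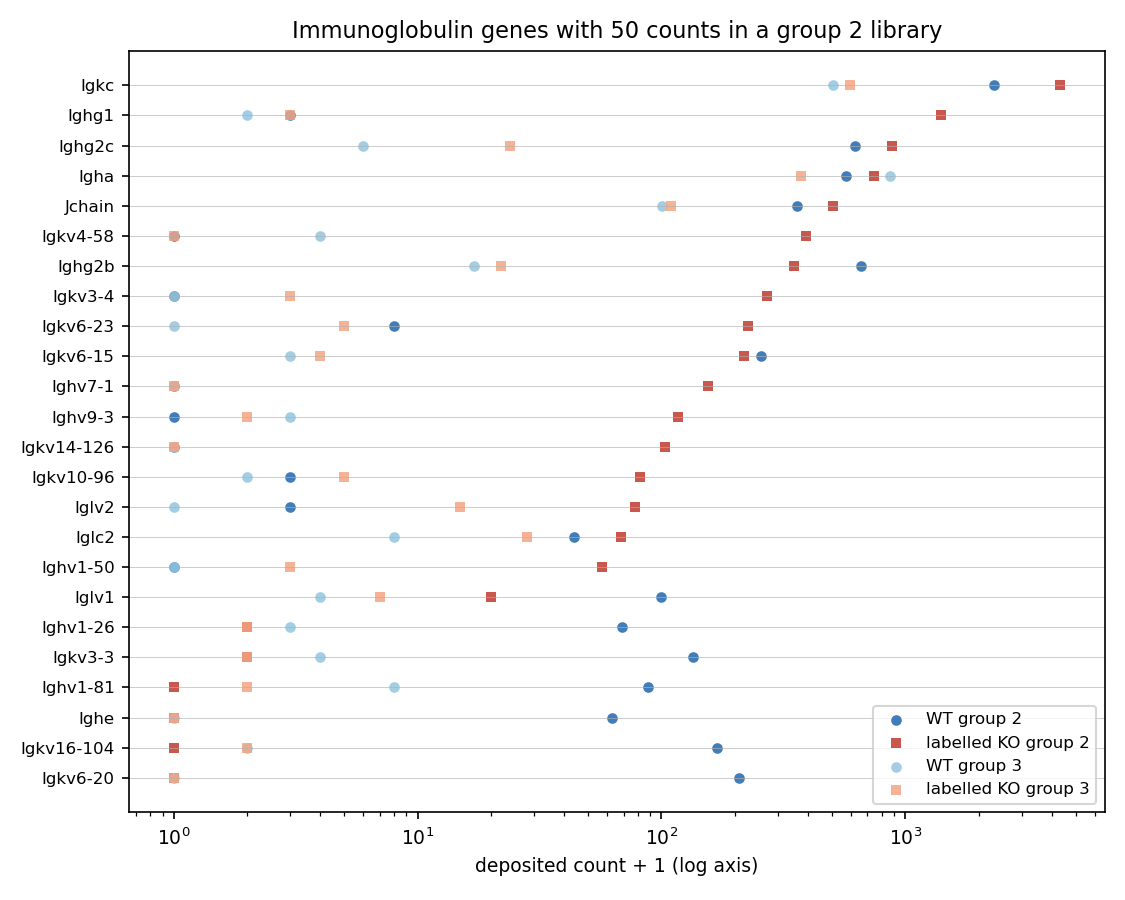
Deposited counts plus 1 on a log axis for immunoglobulin genes with at least 50 counts in a group 2 library, Ighm left out; circles are WT and squares labelled KO libraries, dark for group 2 and light for group 3. Ighg1 has 1400 counts in the group 2 library labelled KO and at most 2 in the other 3 libraries.

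Markers of other cell types, set beside these differences, moved in part with the label. Over the 12 B cell markers the summed level was 73.9 scaled CPM in the WT library and 92.3 in the library labelled KO. The plasma cell and immunoglobulin list, which holds Sdc1, summed to 1788 and 2351, and the T cell list to 18660 and 19183. The 23 macrophage and dendritic cell markers summed to 543 and 783, with 8 of them at 10 CPM, a median log2 ratio of 0.58 and Cd68 past 2-fold (66 and 121 counts); the class II genes Cd74, H2-Aa and H2-Ab1 had ratios of 1.83, 1.98 and 1.59. The erythroid list summed to 361 and 538 and the neutrophil list to 7.53 and 2.94, with no neutrophil gene at 10 CPM. In group 3 the sums were 66.0 and 71.2 (B cells), 598 and 692 (macrophages and dendritic cells), 403 and 395 (erythroid) and 8.95 and 49.9 (neutrophils). The plasma cell and immunoglobulin list was lower in the library labelled KO there, at 1378 and 1211. So was the T cell list, at 18212 and 16482. Thymocytes themselves express some genes of these lists, and the part of other cells in the results on interferon, Sdc1, Ctsh and immunoglobulin genes was not tested.

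Ratios also went with the base composition and level of the genes. Over the 8851 features with a known GC content, the log2 ratio had a Spearman correlation of 0.32 with GC across genes in group 2 and of -0.07 in group 3; the genes of a ratio share both libraries and their depth. From the quintile of genes with the lowest GC to that with the highest, the median log2 ratio was -0.18, -0.10, -0.02, 0.06 and 0.13. With that trend taken out, an adjustment chosen after seeing the data, the medians of the interferon, NRF2, mitosis and histone lists were 0.75, 0.43, -0.54 and -0.84, and 156 genes (1.76%) were 2-fold higher and 87 (0.980%) lower. The median of the AP-1 list fell from 0.55 to 0.42, and that of the immature double-positive list went from -0.28 to -0.21. Of 86 named genes past 2-fold, 10 no longer passed it: Junb, Cebpb, Bbc3, Tnfrsf1b, Tox2, Cnn2, H2-Q7, Cul7, Ttk and Ccne2. Of the interferon genes, 10 in place of 11 passed, Irf7 being at 0.96. Below the threshold the balance changed: among 5476 genes whose higher library had 0.5 to 2 CPM, 1664 were past 2-fold higher and 256 lower. Olfactory receptor genes, known from the sensory neurons of the nose, had 621 counts in the WT library and 1263 in the library labelled KO, but 989 and 618 in group 3. The libraries with more such counts were thus WT in one sorted group and labelled KO in the other.

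**Figure D4:**
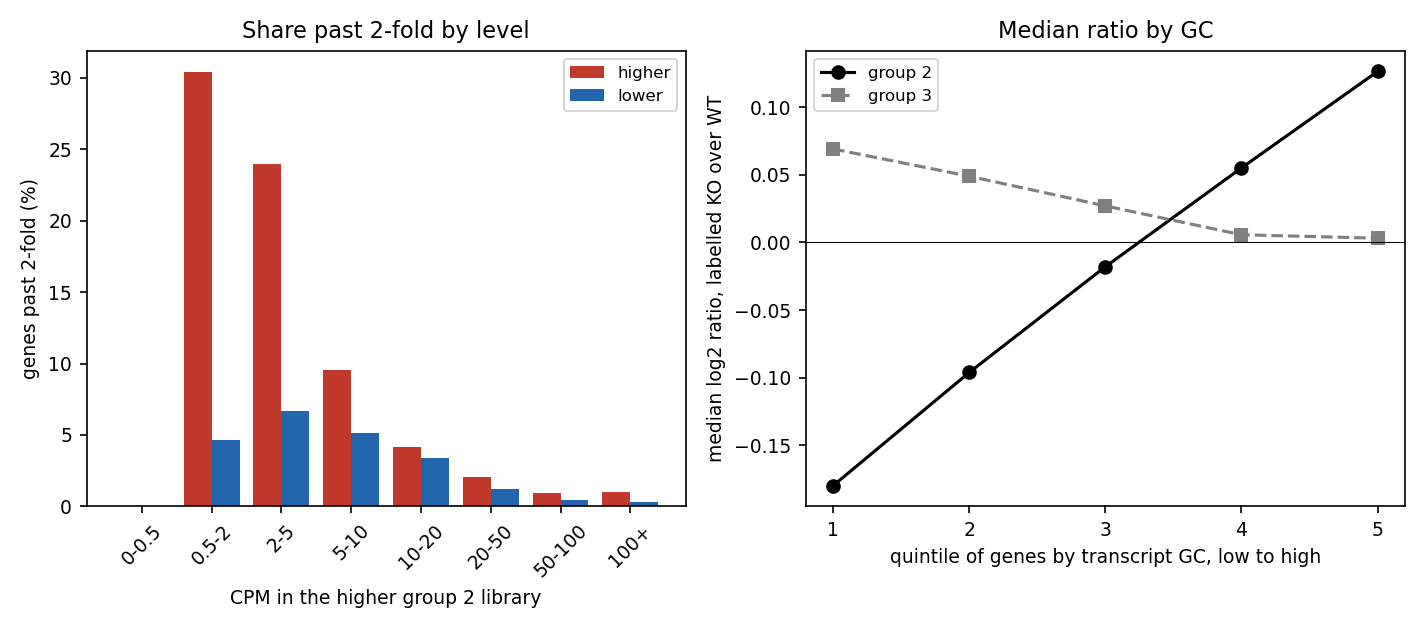
Left, percent of genes past 2-fold higher (red) and lower (blue) by the CPM of the higher group 2 library; right, median log2 ratio by quintile of transcript GC in group 2 (circles) and group 3 (squares). At 0.5 to 2 CPM 30.4% of genes were higher and 4.67% lower, and the group 2 median climbs from -0.18 to 0.13 with GC.

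Set beside group 3, which shares no library with group 2, the differences were of the same sign more often than not. Of the 160 higher genes, 121 (75.6%) lay above 0 in group 3, against 54.2% of all features, and of the 100 lower genes 86 lay below 0, against 45.8%. At 2-fold, 32 higher genes were called in both pairs, 20% of the group 2 list and 32% of the 100 genes (1.13%) higher among the 8837 features of group 3. For lower genes 18 were shared, 18% of the 100 and 21.7% of the 83 (0.939%) of group 3. On the group 2 features, 1.03% were higher and 0.856% lower by 2-fold in group 3. Some genes stood apart in group 3 alone: Rrp1, a ribosomal RNA processing gene, with 351 and 404 counts in group 2 but 426 and 6169 in group 3, and Hsp90aa1, a heat shock protein, with 799 and 674 but 632 and 4660. Exosc5 and Rrp36 had log2 ratios of -0.26 and -0.24 in group 2 and of 2.67 and 2.41 in group 3.

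**Figure D5:**
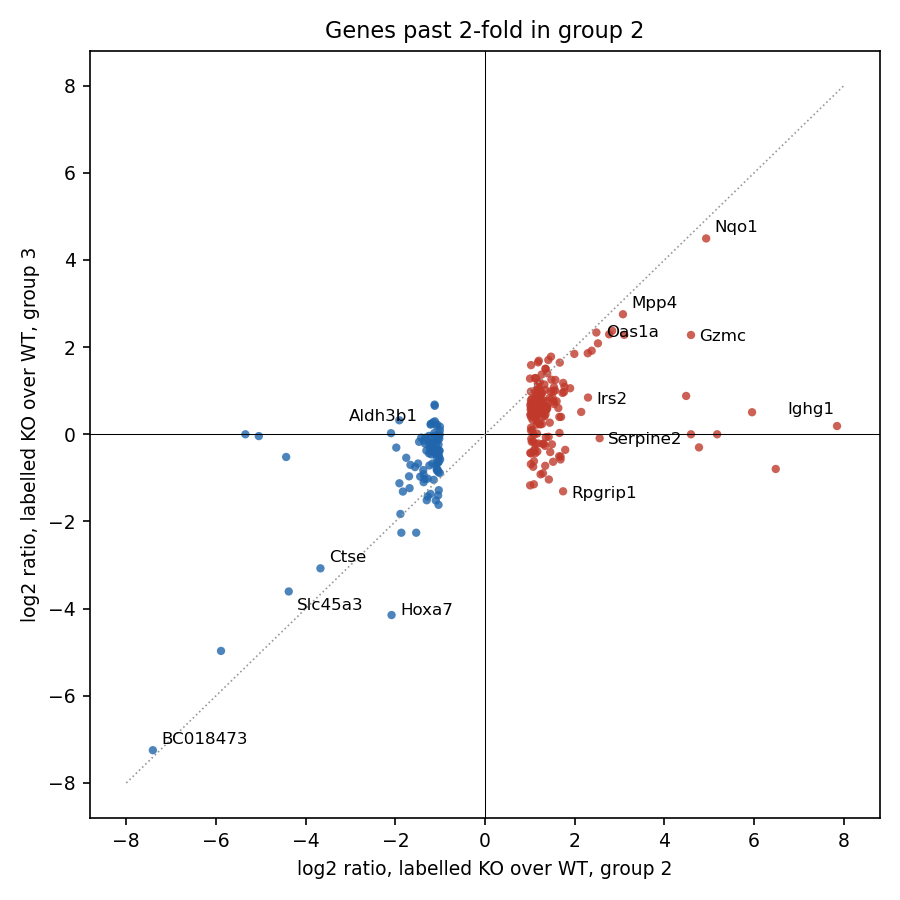
Log2 ratio (library labelled KO over WT) in group 3 against that in group 2 for the 260 genes past 2-fold in group 2, red where higher and blue where lower; the dotted line marks equal ratios. Nqo1, Ctse and BC018473 lie near the line, while Ighg1, Serpine2 and Aldh3b1 lie near 0 on the group 3 axis.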

How the data were processed

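Libraries of sorted thymocytes were grouped by title, 1 per group. The authors deposited counts per Ensembl gene and RPKM per library; the submitters' processing notes name TopHat2 2.0.12 and the mouse build mm10, and the counting program, annotation and strand setting are not given in the sources used here. The deposited RPKM were used only to match the count columns to the samples. Of 35275 genes, 34490 were matched to GENCODE M21; the 785 others held 0.123% and 0.128% of the group 2 counts and were kept in the totals.

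TMM factors (edgeR 4.0.16, R 4.3.3) came from the 12490 genes with 2 CPM in any library. Log2 ratios had 0.5 CPM added to each side; 95% intervals are exact conditional binomial ones (Clopper-Pearson, SciPy 1.17.1), cover counting error only, and leave out the pseudocount. A call needs a 2-fold (or 1.5-fold) difference and an interval excluding 1. Where 1 side was at 0, a floor of 3 counts in that library gives the bound. The rule was run on simulated counts drawn with counting error alone, which cannot test variation between mice or libraries. No p-value was drawn.

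The comparison, its 52 gene lists and the rule for named genes (238 genes) were chosen with earlier results of these data known. The rule leaves out predicted genes, pseudogenes, small RNAs and gene segments of antigen receptors, and takes Uba3, the 15 highest and 15 lowest genes, the 10 most abundant each way, the 5 largest differences from group 3 each way and those past 2-fold in opposite directions, the 3 genes nearest the threshold on each side, the 4 largest ratios of each list and 19 others; genes in a list are also named with it. Promoter windows from RefSeq (GRCm38.p6) were matched for 7035 of 8875 features. Alternatives were DESeq2 1.42.0 size factors, library totals, TMM from the 2 libraries, other filters and other pseudocounts; a lowess adjustment for GC (span 0.3) was added after the data were seen. Results on some genes are not reported here.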

Additional observations from a re-analysis of the deposited data

Results flagged for a closer look

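Olfr613, an olfactory receptor gene, Zfp488, a zinc finger gene, and Rpgrip1, a gene of the photoreceptor cilium, passed 2-fold in opposite directions in the sorted groups. Olfr613 had 56 counts in the WT library and 99 in the library labelled KO in group 2, and 90 and 44 in group 3, log2 ratios of 1.01 and -1.17. Zfp488 had 160 and 368 counts in group 2 and 238 and 133 in group 3, log2 ratios of 1.42 and -1.04. Rpgrip1 had 33 and 103 counts and 76 and 33 counts, log2 ratios of 1.74 and -1.31. In each gene the WT library of group 3 and the library labelled KO of group 2 held the higher counts, which is also the order of the summed olfactory receptor counts. The difference was not tested.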

How the results depend on the processing

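The 160 higher and 100 lower genes became 159 and 100 with DESeq2 size factors, 139 and 121 with library totals, 156 and 87 after the GC adjustment and 124 and 67 with a mean of 10 CPM. The filter on low counts moved them most. Without a filter 2419 genes were higher and 551 lower, at 2 CPM 755 and 295, and at 20 CPM 100 and 51; a pseudocount of 2 CPM left 66 lower genes. Without a filter the median of all genes was 0.15, a shift of 0.18. Over 510 list medians under these alternatives, 475 moved by less than the spread used for comparison, 33 moved by more, and 2 changed sign: the γδ T cell marker median, -0.23 over 1 gene, was 0.66 without a filter and 1.12 at 2 CPM. Of the 86 named genes past 2-fold, the GC adjustment ended 10 calls, library totals 6 (Cnn2, Cul7, Dusp10, H2-Q7, Olfr613 and Tox2) and a pseudocount of 2 CPM 8 (Adgrg1, Ccne2, Cd68, Cdkn1a, Cul7, Olfr613, Tox2 and Ttk); DESeq2 size factors, TMM from the 2 libraries and a pseudocount of 0.1 CPM ended none. Of 236 named genes with a value, 53, 13 and 9 moved by more than the spread used for comparison under the first 3. Near 10 CPM the depth leaves wide intervals, as for Pop1 (ratio 1.13, 0.833 to 1.52). No paired analysis was possible because each group held 1 library and the labels carry no replicate numbers.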

Other observations

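Genes of other systems differed singly in group 2. Ifngr1, a chain of the interferon gamma receptor, had 7246 counts in the WT library and 11331 in the library labelled KO (ratio 1.86, 1.80 to 1.92), and Il7r, the IL-7 receptor α chain, 493 and 261 (0.629, 0.540 to 0.733). Tsc22d3 (GILZ), a glucocorticoid-induced gene, had 7732 and 3642 (0.560, 0.538 to 0.583). Socs3, a feedback inhibitor of cytokine receptors and a cullin 5 adaptor, had 90 and 178 (2.35, 1.81 to 3.06), and Spsb1, another adaptor with a SOCS box, 151 and 339 (2.67, 2.20 to 3.26). Cebpb, a basic leucine zipper factor gene, had 159 and 309 (2.31, 1.90 to 2.82). Ern1 (IRE1α), a sensor of misfolded protein in the endoplasmic reticulum, had 40 and 94 (2.79, 1.91 to 4.15), while Calr, an abundant chaperone of the same compartment, had a ratio of 1.41.

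Genes past 2-fold were not set closely together along the chromosomes more often than others by a wide margin: 93 of 260 (35.8%) had another such gene within 1 Mb, and 2734 of 8591 other features with coordinates (31.8%) had one. Chromosome 13, with the histone cluster, had the highest share of lower genes, 12 of 337 features (3.56%), against 1.13% of all features. These lower genes are not all histones, and Slc6a19 is among them.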
